A study of Mus musculus with 130 samples.

Results

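Mouse 2-cell embryos that had developed in SR1848 were compared by how strongly they expressed a set of transcripts known from the 2-cell stage. For each of the 80 SR1848 embryos a score was taken as the mean, over the 6 genes Zscan4c, Zscan4d, Tcstv1, Tcstv3, AF067061 and Zfp352, of log2(CPM + 1), where CPM is a gene's count scaled to a common library total over all named genes. The 20 embryos with the highest score (high embryos) were set against the 20 with the lowest (low embryos), 40 of the 130 embryos in all. The other 40 SR1848 embryos (middle embryos), which the ranking places between them, and the 50 vehicle embryos, which were not ranked, are in neither group and carry every test given here. Because the groups were chosen by the measured levels of these 6 genes in the same embryos, differences between high and low embryos are a description and have no p-value.

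All embryos were B6129F1 zygotes isolated 5 h after fertilisation, cultured in KSOM medium without an oil overlay, and collected as single whole embryos at the 2-cell stage. From 6 h after fertilisation the medium held 10 uM SR1848, an inhibitor of the orphan nuclear receptor Nr5a2, or 0.1% DMSO, the vehicle, and the labels do not give the vehicle content of the SR1848 medium. Polyadenylated RNA of each embryo was read by Smart-seq2 with oligo dT priming, a method without molecular identifiers. No dose series or second collection time was given, so embryos within a group differ by no labelled variable other than their number.

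Zscan4 genes encode zinc-finger proteins with a SCAN domain that are transcribed in a burst when the mouse genome is switched on at the 2-cell stage, and again in rare cells of embryonic stem cell cultures, where they are known for their part in telomere lengthening and genome stability. Tcstv genes are transcribed with them, and Zfp352 is a zinc-finger gene of the same stage. The burst is followed by transcription of housekeeping genes, among them those for ribosomes, while transcripts stored in the egg are degraded.

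The start regions of 4 of the 6 score genes and of 2 Eif1ad genes, the family that led the other differences, are shown because they differ in the motifs they carry, also among the score genes. Each runs 5′ to 3′ from 250 bases before to 50 after the annotated start (RefSeq, build GRCm38.p6), and capitals mark TAATCC, a motif of paired-like homeobox factors such as the Obox family, and TCAAGG, the core of the Nr5a2 motif, read on either strand (GGATTA and CCTTGA).
Zscan4c (chr7:11005495-11005794, plus strand): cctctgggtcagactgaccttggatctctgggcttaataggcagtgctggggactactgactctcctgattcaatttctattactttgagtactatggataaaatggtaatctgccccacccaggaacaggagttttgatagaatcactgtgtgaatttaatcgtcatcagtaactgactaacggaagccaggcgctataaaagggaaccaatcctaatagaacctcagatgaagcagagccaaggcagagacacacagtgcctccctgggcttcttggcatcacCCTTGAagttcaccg
Zscan4d (chr7:11166099-11166398, minus strand): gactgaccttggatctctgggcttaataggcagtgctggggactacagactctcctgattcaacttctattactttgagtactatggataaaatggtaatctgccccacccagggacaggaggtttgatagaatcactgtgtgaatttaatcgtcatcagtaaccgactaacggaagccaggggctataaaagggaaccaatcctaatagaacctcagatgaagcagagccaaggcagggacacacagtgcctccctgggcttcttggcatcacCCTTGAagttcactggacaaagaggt
AF067061 (chr13:120262845-120263144, plus strand): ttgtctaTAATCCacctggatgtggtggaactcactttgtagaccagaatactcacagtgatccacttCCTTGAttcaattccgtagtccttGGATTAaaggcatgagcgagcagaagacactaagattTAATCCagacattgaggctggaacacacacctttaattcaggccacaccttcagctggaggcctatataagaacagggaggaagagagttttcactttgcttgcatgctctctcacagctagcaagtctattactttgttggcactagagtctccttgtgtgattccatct
Zfp352 (chr4:90218570-90218869, plus strand): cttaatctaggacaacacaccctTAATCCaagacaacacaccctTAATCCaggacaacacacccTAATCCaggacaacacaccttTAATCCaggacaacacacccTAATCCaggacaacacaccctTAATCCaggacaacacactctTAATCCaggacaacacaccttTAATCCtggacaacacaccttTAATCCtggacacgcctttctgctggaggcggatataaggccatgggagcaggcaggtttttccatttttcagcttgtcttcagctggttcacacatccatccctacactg
Eif1ad6 (chr12:87618659-87618958, plus strand): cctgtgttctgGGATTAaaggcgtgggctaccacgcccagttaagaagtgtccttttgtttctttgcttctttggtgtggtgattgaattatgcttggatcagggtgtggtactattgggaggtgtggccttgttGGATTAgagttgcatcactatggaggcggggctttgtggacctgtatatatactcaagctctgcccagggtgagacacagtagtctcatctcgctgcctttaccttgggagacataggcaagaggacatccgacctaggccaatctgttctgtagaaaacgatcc
Eif1ad2 (chr12:87816327-87816626, plus strand): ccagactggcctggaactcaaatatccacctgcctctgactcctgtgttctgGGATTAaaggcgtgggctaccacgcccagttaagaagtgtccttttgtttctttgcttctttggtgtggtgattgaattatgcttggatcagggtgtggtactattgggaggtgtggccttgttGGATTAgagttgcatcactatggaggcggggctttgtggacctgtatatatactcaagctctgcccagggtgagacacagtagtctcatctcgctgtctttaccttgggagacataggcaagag
Zscan4c and Zscan4d matched at 281 of the 300 bases of the window (93.67%) and each held TCAAGG once and TAATCC nowhere in it. Zfp352 held TAATCC 9 times in a tandem array, AF067061 3 times, and Eif1ad6 and Eif1ad2 2 times each. The latter pair matched at 258 of the 300 bases (86%). The windows of each pair start at different points of the shared sequence, which lowers both shares. TAATCC stood in 7.06% of all 32851 promoters of the table, in 6.05% of the 11333 promoters of genes tested, in 11.2% of the 884 promoters of genes counted as higher in high embryos and in 4.33% of the 462 promoters of genes counted as lower. TCAAGG stood in 14.4% of all promoters, in 12.2% of those of genes tested, in 14.4% of those of higher genes and in 10.6% of those of lower genes. The same order was seen for TATAAA (7.91% of those of genes tested, 11% of higher and 5.84% of lower genes). It was also seen for CCAAT (39.4%, 41.3% and 34.4%), so it was not particular to TAATCC. Promoters of copied genes, such as Eif1ad6 and Eif1ad2, count as separate entries. A gene can have several entries in this table, one for each start site, so that these promoters belong to 761 of the higher and 345 of the lower genes. A match is a run of letters and not a measured binding site.

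The score of the high embryos ran from 7.81 over a median of 8.03 to 8.86, and that of the low embryos from 2.96 over 5.86 to 6.55. Middle embryos lay between 6.84 and 7.77, and DMSO embryos between 2.53 and 5.40 with a median of 4.22. The border embryos were close: the highest low embryo had 6.55 and the lowest middle one 6.84, and the highest middle embryo had 7.77 against 7.81 for the lowest high one. The score was thus a continuum among SR1848 embryos, apart from 3 low embryos at 2.96, 3.46 and 3.96. All 20 high embryos and 14 of the 20 low embryos lay above every DMSO embryo. Most low embryos were thus low among SR1848 embryos but not against the vehicle, while 6 lay within the DMSO range and 3 of these below the DMSO median.

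**Figure D1:**
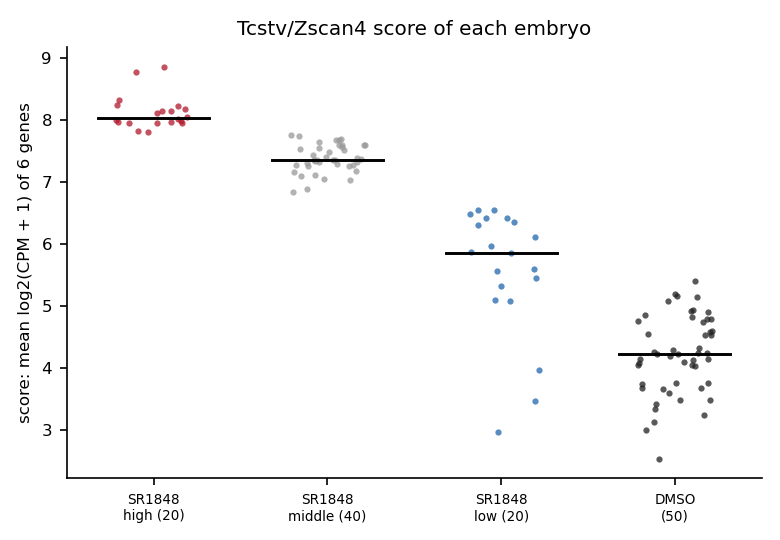
Score of every embryo (mean log2(CPM + 1) of the 6 genes), by group. Each point is an embryo and black bars mark medians; the high embryos start at 7.81, the low embryos end at 6.55, and 3 low embryos lie below 4 within the range of the DMSO embryos.

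Each of the 6 score genes had a higher median in high embryos, which the choice fixed. AF067061 ran from 195 over a median of 395 to 1150 CPM in high embryos, against 4.37, 46.7 and 159 CPM in low embryos and a DMSO median of 6.05 CPM. Tcstv3 ran from 206 over 381.5 to 689 CPM in high embryos, against 7.72, 71.8 and 190 CPM in low embryos and a DMSO median of 17.2 CPM. For both genes no high embryo was as low as any low embryo. Tcstv1 ran from 205 over 316 to 844 CPM in high embryos, against 1.34, 78.9 and 216 CPM in low embryos and a DMSO median of 16.3 CPM, with 19 high embryos above every low one. Zscan4d ran from 89.4 over 260 to 510.5 CPM in high embryos, against 1.39, 55.9 and 118 CPM in low embryos and a DMSO median of 28.5 CPM. Zscan4c ran from 41.7 over 103 to 539 CPM in high embryos, against 0, 15.7 and 60.4 CPM in low embryos and a DMSO median of 7.66 CPM. Both Zscan4 genes overlapped between the groups, though no more than 3 high embryos of Zscan4c reached into the low range. Zfp352 differed least, from 119 over 301 to 658 CPM in high embryos against 5.37, 100.3 and 251 CPM in low embryos, and its DMSO median of 77.3 CPM was close to that of the low embryos. No low embryo and 13 high embryos exceeded every DMSO embryo for Zfp352.

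The fitted log2 fold changes of high over low embryos were 2.93 (SE 0.31) for AF067061, 2.78 (SE 0.38) for Zscan4c and 2.29 (SE 0.29) for Zscan4d. They were 2.21 (SE 0.26) for Tcstv3, 2.03 (SE 0.27) for Tcstv1 and 1.69 (SE 0.26) for Zfp352. The 3 kinds of gene ranked embryos alike in the main but not in full. A score from Zscan4c and Zscan4d alone kept 14 of the 20 high and 17 of the 20 low embryos, one from Tcstv1, Tcstv3 and AF067061 kept 14 and 18, and Zfp352 alone kept 11 and 14. The 20 embryos lowest in Zfp352 included 1 high embryo. Of 21 tested genes that share sequence with a score gene, among them Zscan4a, Zscan4f and Gm21761, 18 were counted as higher. They cannot be read separately from the score genes and are left out of every count that follows.

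**Figure D2:**
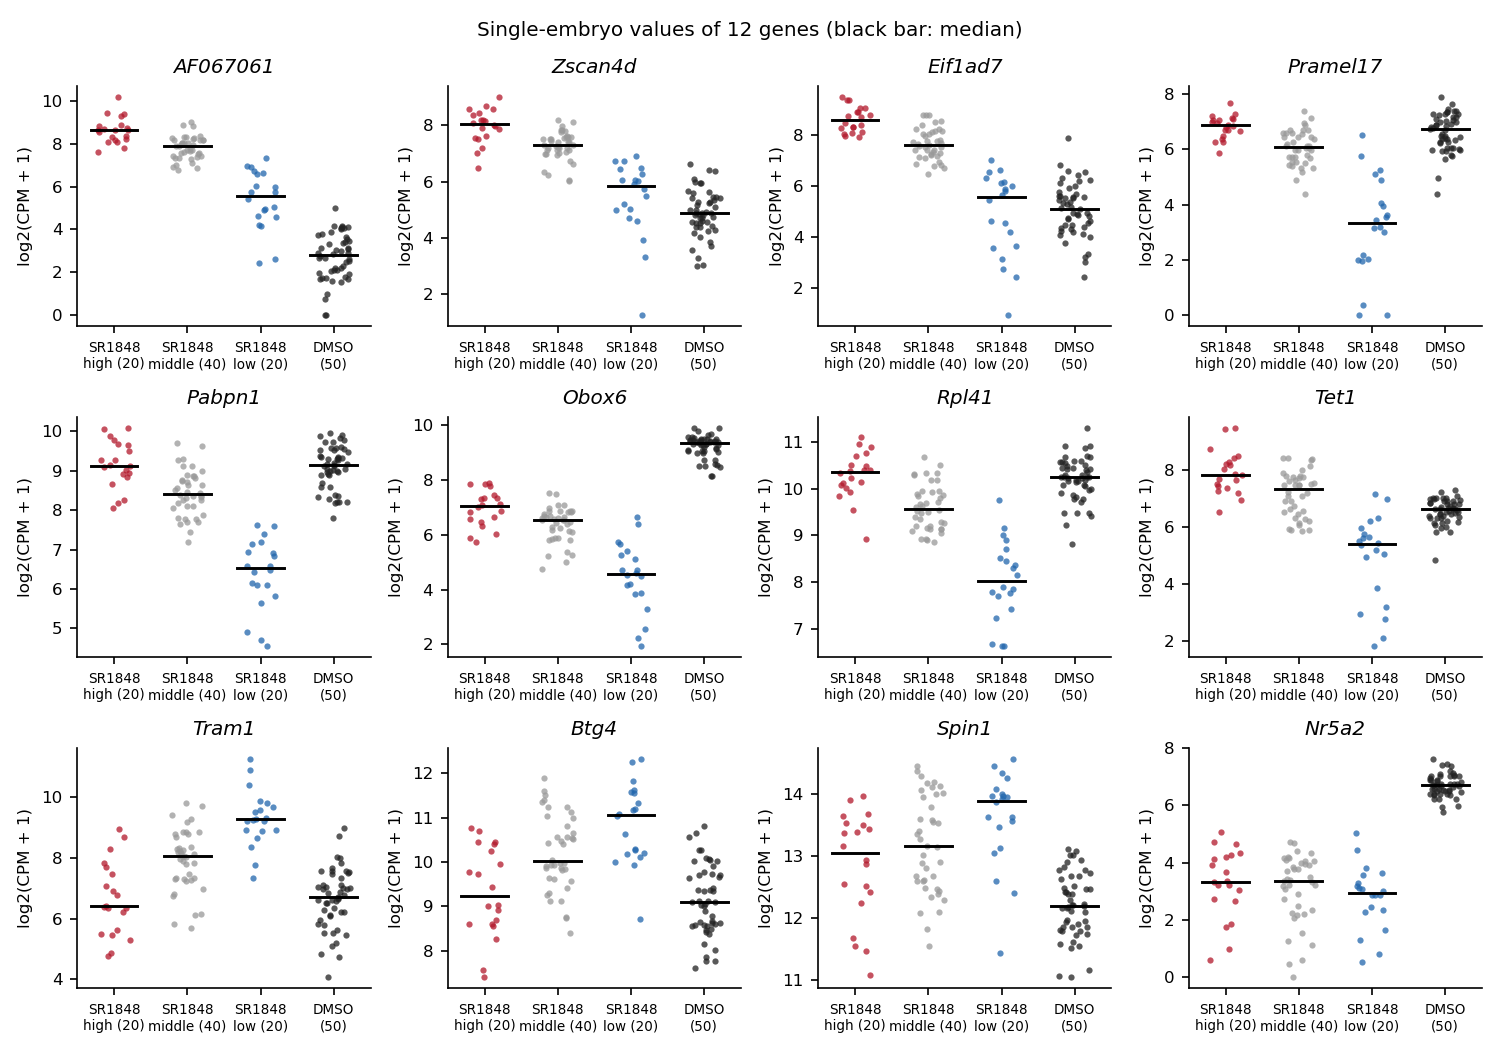
Level of 12 genes in every embryo as log2(CPM + 1), in high, middle, low and DMSO embryos from left to right, with the number of embryos in brackets. Points are embryos and black bars are medians; AF067061, Eif1ad7 and Pabpn1 do not overlap between high and low embryos, Tram1 and Btg4 are lower in most high embryos, and Nr5a2 overlaps widely, with medians of 9.12 CPM in high and 6.71 CPM in low embryos.

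Over the other genes, a gene was counted as higher or lower where its fitted difference was at least 2-fold and where the high embryo was above the low one in at least 0.8, or at most 0.2, of all pairs of embryos (its pair share). Of 11743 genes tested, 1141 (9.72%) were higher and 440 (3.75%) lower in high embryos, and the median log2 difference over all genes was -0.05. High embryos thus differed from low embryos in far more genes than the 6 scored, and more of these were higher than lower. Without the 3 low embryos that stood apart, chosen after seeing the data, 1010 were higher and 353 lower. In whole embryos, fewer cells with a transcript and less of it per cell cannot be told apart, and where the labels name no separate litters or cultures the spread between embryos may be partly technical.

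The low embryos also differed in the make-up of their libraries. Mitochondrially encoded genes took a median of 6.56% of counts in high embryos and 2.83% in low embryos, with 4.63% in DMSO embryos. At a common depth of 3273726 counts, 15472 ± 828 genes were detected in high embryos (SD, n = 19), 14639 ± 584 in low embryos (SD, n = 19) and 15482 ± 385 in DMSO embryos (SD, n = 49). Total counts overlapped widely, between 2756137 and 6355792 in high embryos and between 2978311 and 7727749 in low embryos. In the 40 middle embryos, where these measures could be tested, the score rose with the share of counts in the 100 most abundant genes (Pearson r = 0.423, Spearman rho = 0.461, permutation test, adjusted p = 0.0386 and 0.0194) and with the mitochondrial share (r = 0.354, rho = 0.275, permutation test, adjusted p = 0.0468 and 0.105). It also went with the number of genes detected (r = 0.360, rho = 0.349, n = 36, permutation test, adjusted p = 0.0468 and 0.0744) a relation that ended with a TMM-scaled score (r = 0.209, adjusted p = 0.332), but not detectably with total counts (r = -0.109, rho = -0.0043, adjusted p = 0.50 and 0.979). Adjustment was over 6 measures. Without the 2 embryos farthest from the median score r was 0.310 for the top 100 genes, 0.207 for the mitochondrial share and 0.353 for genes detected. The part of these measures in the gene differences was not tested.

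Markers of cells that can adhere to an embryo were mostly near 0, with the exceptions of Odf2 and the globins. Of 14 cumulus cell markers 8 had a median of 0 in high and in low embryos, with summed medians of 25.4 CPM in high, 11.8 CPM in low and 32.5 CPM in DMSO embryos. Among low embryos 1 reached 814.9 CPM, mostly of Gja1 and Inha. Of 10 sperm markers 7 had a median of 0 in high and in low embryos, and the sum of 374 CPM in high, 631 CPM in low and 228 CPM in DMSO embryos was almost wholly Odf2, a centrosome and outer dense fibre gene. Of 8 blood markers, Hba-a1 and Hba-a2 made most of a sum of 261 CPM in high, 129 CPM in low and 40.6 CPM in DMSO embryos. Of the 3 blood markers tested, 1 was counted as higher, Cd74, with medians of 6.11 CPM in high, 1.23 CPM in low and 2.33 CPM in DMSO embryos (log2 fold change 1.63, SE 0.45). Gdf9, a growth factor made by the egg, was present in every group, with medians of 248 CPM in high, 246 CPM in low and 158.5 CPM in DMSO embryos. Other egg and early embryo markers were less even. High against low medians were 83.05 and 40.5 CPM for Zp3, 253 and 188 for Padi6, 361 and 259 for Oosp1 and 613 and 249.5 for Tmem92. They were 397 and 409 CPM for Nlrp5 and 18.9 and 20.4 for Zar1. The part of these markers in the results was not tested.

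Other genes of the 2-cell burst were higher in the same embryos. Of 40 tested members of a list of 2-cell-stage genes outside the score, 27 were counted as higher and none as lower, and their median log2 difference was 1.53, beside -0.05 over all genes. Their summed level had a median of 6344 CPM in high embryos, 2752 CPM in low embryos and 4301 CPM in DMSO embryos. The Eif1ad genes, a chromosome 12 cluster that encodes proteins like translation factor eIF1A, led the list. Eif1ad7 (chromosome 12, 88270640 to 88274500, minus strand, mm10) ran from 237 over 378.5 to 710 CPM in high embryos and from 0.929 over 46.2 to 127 CPM in low embryos, beside a DMSO median of 33.7 CPM. Eif1ad6 ran from 184 over 300 to 753 CPM in high embryos and from 0.619 over 38.7 to 113 CPM in low embryos. Neither gene overlapped between the groups. Their log2 fold changes were 3.22 (SE 0.35) and 2.96 (SE 0.34), and those of Eif1ad3 and Eif1ad10 were 3.23 (SE 0.35) and 3.24 (SE 0.35). Copies of this family share most of their sequence, between 89.1% and 100% of 31-base stretches for these 4 genes, so the division of counts among them is uncertain. They are therefore not independent members of the list count.

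Crxos, a homeobox gene beside the Obox cluster, ran from 67.8 over 136 to 280 CPM in high embryos, against 0.619, 19.3 and 51.1 CPM in low embryos, and here the DMSO median of 438 CPM was above both. Its groups did not overlap either (log2 fold change 2.85, SE 0.32). Pramel17, a gene of the leucine-rich PRAME family, ran from 57.4 over 115 to 201 CPM in high embryos and from 0 over 9.04 to 90.2 CPM in low embryos, beside a DMSO median of 104 CPM. Here 15 high embryos lay above every low one. Gm6763, the most abundant member, had medians of 750.5 CPM in high, 222 CPM in low and 5.61 CPM in DMSO embryos (log2 fold change 1.59, SE 0.25). All of its 31-base stretches also occur in other genes, 198 in all, so its counts cannot be assigned to it alone. Tdpoz1, Tdpoz3, Tdpoz4 and Tdpoz5, genes with TRAF and BTB domains, were all counted, with log2 fold changes between 1.89 and 2.82. Members that were not counted included Duxf3, the homeobox gene at the head of the burst (0.04), Nelfa (-0.55), Cwc15 (-0.11) and Fbxo15 (0.65). Of the 40 members, 25 had a high median above the DMSO median and 20 a low median above it.

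Several of the 15 largest differences upward lay outside that list. Pabpn1, the nuclear poly(A)-binding protein, ran from 267 over 560 to 1089 CPM in high embryos, against 22.2, 91.8 and 197.5 CPM in low embryos, without overlap (log2 fold change 2.68, SE 0.23). Its DMSO median of 569 CPM was close to that of the high embryos. Tet1, an enzyme that oxidises 5-methylcytosine, ran from 89.6 over 227 to 707.5 CPM in high embryos and from 2.48 over 41.02 to 142.5 CPM in low embryos, beside a DMSO median of 96.4 CPM, with 18 high embryos above every low one (log2 fold change 2.64, SE 0.36). Prl8a1, of the prolactin family, ran from 102 over 191 to 464 CPM in high embryos and from 2.79 over 20.8 to 147 CPM in low embryos, beside a DMSO median of 165.5 CPM. Pramel45, Cypt2, Tdpoz9-ps1 and the Eif1ad copies made up the rest, with log2 fold changes down to 2.55.

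**Figure D3:**
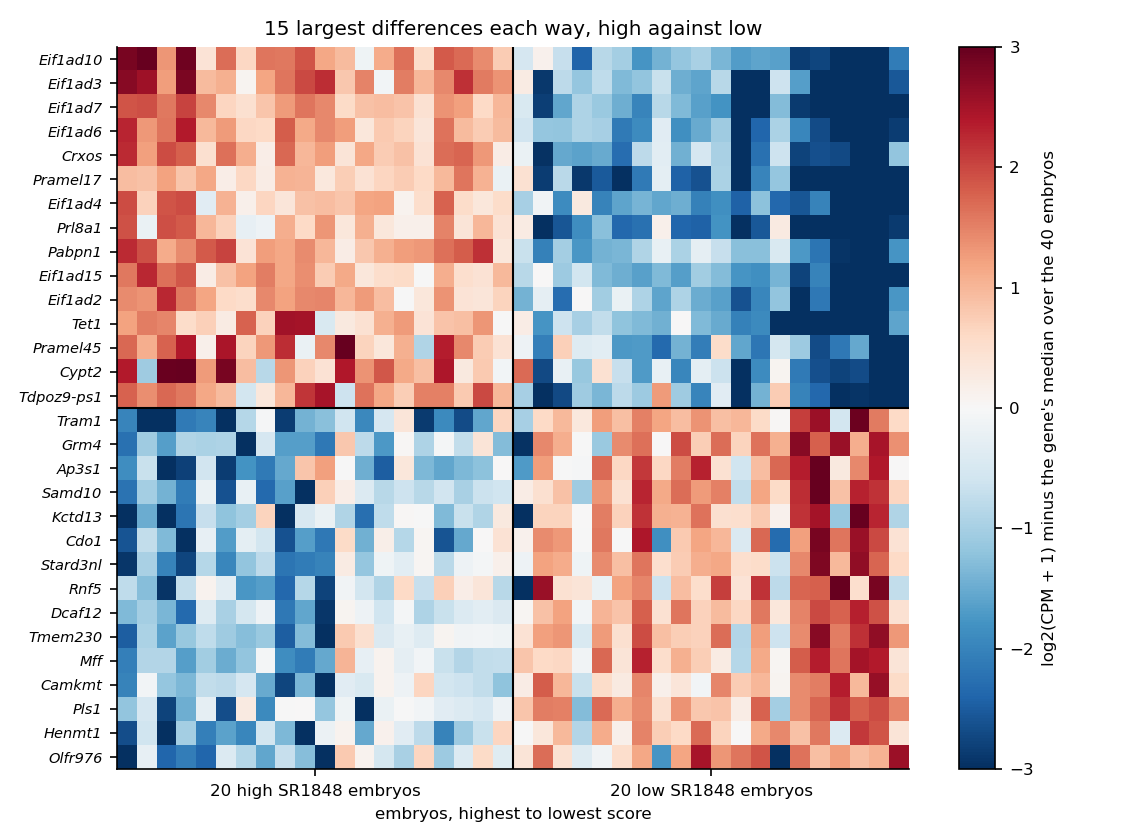
Level of the 15 genes with the largest upward and the 15 with the largest downward difference in each of the 40 high and low embryos, as log2(CPM + 1) minus the gene's median over these embryos. Columns are embryos from highest to lowest score, with the 20 high embryos left of the black line; upward genes are red in most high embryos and deepest blue in the embryos with the lowest scores, and downward genes are patchier on both sides.

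Regulators proposed to act at genome activation were split. Of 37 tested, 7 were counted as higher and none as lower, and the list median of 0.04 was near that of all genes. Obox3, Obox6 and Obox8, homeobox genes of egg and early embryo, were among the 7. Obox6 ran from 52.9 over 133 to 238 CPM in high embryos and from 2.79 over 22.8 to 98.8 CPM in low embryos, with 14 high embryos above every low one (log2 fold change 2.23, SE 0.31). Obox3 had medians of 18.6 CPM in high and 4.46 CPM in low embryos (2.30, SE 0.39), and Obox8 75.5 CPM in high and 7.28 CPM in low embryos (2.21, SE 0.43). The DMSO medians of Obox6, Obox3 and Obox8 were 647, 99.7 and 230 CPM, above those of both groups. Dppa4, Nfyb, Gabpa and Zfp42 completed the 7 at log2 fold changes between 1.34 and 2.18. In contrast Obox1 (-0.23), Obox2 (0.17), Obox5 (-0.02) and Obox7 (-0.66) were not counted, nor was Klf17, the most abundant member (0.08).

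Nr5a2 itself did not follow the score. It ran from 0.536 over 9.12 to 32.7 CPM in high embryos and from 0.466 over 6.71 to 31.7 CPM in low embryos, with wide overlap, a log2 fold change of 0.53 (SE 0.40) and a pair share of 0.635. DMSO embryos had 52.99 to 196 CPM with a median of 104.5 CPM, above every high and low embryo. Among 22 nuclear receptors 1 was counted as higher and 1 as lower, with a list median of -0.56. Nr2c2 (TR4) had medians of 26.04 CPM in high and 8.93 CPM in low embryos (log2 fold change 1.58, SE 0.40), and its paralogue Nr2c1 (TR2) 8.86 CPM in high and 19.9 CPM in low embryos (-1.27, SE 0.43). Of 21 pluripotency factors, Zfp42 (2.08) and Dppa5a (1.76) were counted as higher, a share near the 9.72% over all genes, and none as lower. Pou5f1 (-0.67), Sox2 (0.41) and Nanog (0.69) were not counted.

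Ribosomal protein genes were higher in high embryos as a body. Of 82 tested, 40 were counted as higher, none as lower and 79 had a log2 difference above 0, with a median of 1.03. Without the 3 low embryos that stood apart 29 were counted as higher, with a median of 0.89. Their summed level ran from 4993 over 11320 to 18980 CPM in high embryos and from 2662 over 5165 to 9922 CPM in low embryos, against a DMSO median of 15330 CPM. Rpl41, the smallest protein of the large subunit, ran from 485 over 1302 to 2186 CPM in high embryos and from 98.7 over 260 to 866 CPM in low embryos, beside a DMSO median of 1211 CPM (log2 fold change 2.07, SE 0.21). In it 18 high embryos lay above every low one. Rps25 had medians of 56.2 CPM in high, 14.3 CPM in low and 167 CPM in DMSO embryos (1.91, SE 0.29). Rplp0, the most abundant, had medians of 1955 CPM in high, 1189 CPM in low and 1231 CPM in DMSO embryos and was not counted (0.74, SE 0.19). In 74 of the 82 genes the high median was the nearer to the DMSO median. Processed copies of these genes are many, and 23.2% of the 31-base stretches of Rpl41 and 42.8% of those of Rplp0 also occur in other genes.

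The genes that build ribosomes went the same way. Of 60 ribosome biogenesis genes 15 were counted as higher, none as lower and 51 lay above 0 (median 0.83), a count that was 9 without the 3 low embryos that stood apart. Nop16, a nucleolar protein, had medians of 29.6 CPM in high, 5.44 CPM in low and 355 CPM in DMSO embryos (2.31, SE 0.39). Npm1 (1.25), Ddx21 (1.59), Nop10 (1.67) and Polr1c (1.10) were also among the 15. Of 53 splicing factors 12 were higher and none lower (median 0.57), led by Sf3b6 with medians of 33.1 CPM in high, 6.41 CPM in low and 147 CPM in DMSO embryos. Of 35 proteasome genes 9 were higher and none lower (0.45), and of 46 DNA replication genes 9 were higher and none lower (0.47). Pcna, the sliding clamp of replication, ran from 60.4 over 148 to 271 CPM in high embryos and from 17.6 over 43.6 to 72.3 CPM in low embryos, beside a DMSO median of 134.5 CPM (1.77, SE 0.18). Only 1 of the 20 high embryos lay within the low range.

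Nuclear genes of oxidative phosphorylation had 13 of 66 counted as higher and 1 as lower (median 0.61), with Cox7b at 77.4 CPM in high, 10.6 CPM in low and 51.6 CPM in DMSO embryos. None of the 13 mitochondrially encoded genes was counted, although all 13 lay above 0 (median 0.55), whereas under scaling to the summed oocyte transcripts 8 of the 13 were (median 1.055). Of these genes mt-Cytb had medians of 19190 CPM in high, 7392 CPM in low and 14910 CPM in DMSO embryos. RNA polymerase II and Mediator genes went both ways, with 14 of 74 higher and 6 lower (median 0.23). Med31 had a log2 fold change of 2.07 (SE 0.32) and Med30 one of -1.94 (SE 0.36). Of 44 translation initiation factors 5 were higher, a share near the 9.72% over all genes, and none lower (0.25). Eif5a, the most abundant, was not counted (-0.72, SE 0.14). The 40 genes of G2 and mitosis had 2 higher and 2 lower (0.15), with Cdk1 at 1.18 and Cdc25b, the phosphatase that activates it, at -1.30.

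Stress genes were counted in small numbers. Of 16 heat shock genes 3 were counted as higher (Hsp90ab1, Hsph1 and Hsp90aa1, between 1.02 and 1.17) and none as lower, beside 9.72% higher over all genes, and without the 3 low embryos that stood apart 1 was. Of 35 genes of the unfolded-protein and integrated stress response 1 was higher (Ddit3, 1.25) and none lower, and of 20 p53 targets 1 was higher and none lower. Of 21 immediate-early genes Btg2 (1.31) and Klf6 (1.06) were higher and Egr1 (-1.43) lower, and without the 3 low embryos none was higher. Among 18 patterning and Notch-effector factors 1, Lhx6 (1.02), was higher and none lower, and 15 of the 18 had a low median above the DMSO median. Of 32 DNA damage and telomere genes 1 was higher and 1 lower, of 17 trophectoderm genes 1 (Dab2, -1.53) was lower, and of 38 replication-dependent histones 1 (H4c9, 1.39) was higher.

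Transcripts stored in the egg were counted as lower about as often as all genes. Of 54 oocyte transcripts 2 were counted as lower, beside 3.75% over all genes, and none as higher, and 42 lay below 0 with a median of -0.30. Scaling to the summed oocyte transcripts lifted the median of all genes from -0.05 to 0.28. It put 31 of the 54 above 0 and their median at 0.07, but it takes out any change that these transcripts share. Btg4, an adaptor of the deadenylase that clears maternal messages, ran from 168 over 607 to 1750 CPM in high embryos and from 416 over 2137 to 5128 CPM in low embryos, beside a DMSO median of 548 CPM (log2 fold change -1.55, SE 0.29). The groups overlapped, with 11 low embryos above every high one. Cpeb1, which controls polyadenylation of stored messages, had medians of 162.5 CPM in high and 312 CPM in low embryos (-1.07, SE 0.22). Spin1, the most abundant, had medians of 8476 CPM in high, 15090 CPM in low and 4689 CPM in DMSO embryos and was not counted (-0.78, SE 0.24). None of 13 genes of the subcortical maternal complex was counted (median -0.12, and 0.33 under the oocyte scaling). Their summed level had medians of 11960 CPM in high, 19300 CPM in low and 5210 CPM in DMSO embryos, with overlapping ranges. Summed oocyte transcripts had medians of 33410 CPM in high, 40170 CPM in low and 26340 CPM in DMSO embryos. Of 43 maternal chromatin and methylation factors 2, Tet1 and Ehmt2, were higher and none lower.

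The 15 largest differences downward were in genes of varied function. Tram1, a membrane protein of the endoplasmic reticulum translocon, ran from 26.1 over 83.8 to 501.5 CPM in high embryos and from 160 over 619 to 2461 CPM in low embryos, beside a DMSO median of 103 CPM (log2 fold change -2.62, SE 0.36). Dcaf12, a substrate receptor of a CUL4 ubiquitin ligase, ran from 30.4 over 153 to 250.5 CPM in high embryos and from 224 over 472 to 1206 CPM in low embryos, beside a DMSO median of 319 CPM (-2.08, SE 0.24). It overlapped least among the 15, with 18 high embryos below every low one. Mff, the receptor for the mitochondrial fission machinery, had medians of 284 CPM in high, 904 CPM in low and 185 CPM in DMSO embryos (-2.04, SE 0.29). Cdo1, which oxidises cysteine, had medians of 92.5 CPM in high, 449 CPM in low and 81.9 CPM in DMSO embryos (-2.24, SE 0.36), and Stard3nl, a protein of late endosomes, 60.5 CPM in high, 234 CPM in low and 40.8 CPM in DMSO embryos (-2.21, SE 0.30). Henmt1, the methyltransferase of piRNA ends, had medians of 23.9 CPM in high, 90.4 CPM in low and 12.1 CPM in DMSO embryos. Grm4, Ap3s1, Samd10, Kctd13, Rnf5, Tmem230, Camkmt, Pls1 and Olfr976 completed the 15, between -2.44 and -1.98. In all 15 the low median was above the DMSO median, and in 13 of them the high median was the nearer to it.

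All counted genes were also set beside the vehicle. Of the 1141 higher genes, 506 had a high median and 169 a low median above the DMSO median, and in 820 the high median was the nearer. Of the 440 lower genes, 285 had a high median and 413 a low median above it, and in 368 the high median was the nearer.

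**Figure D4:**
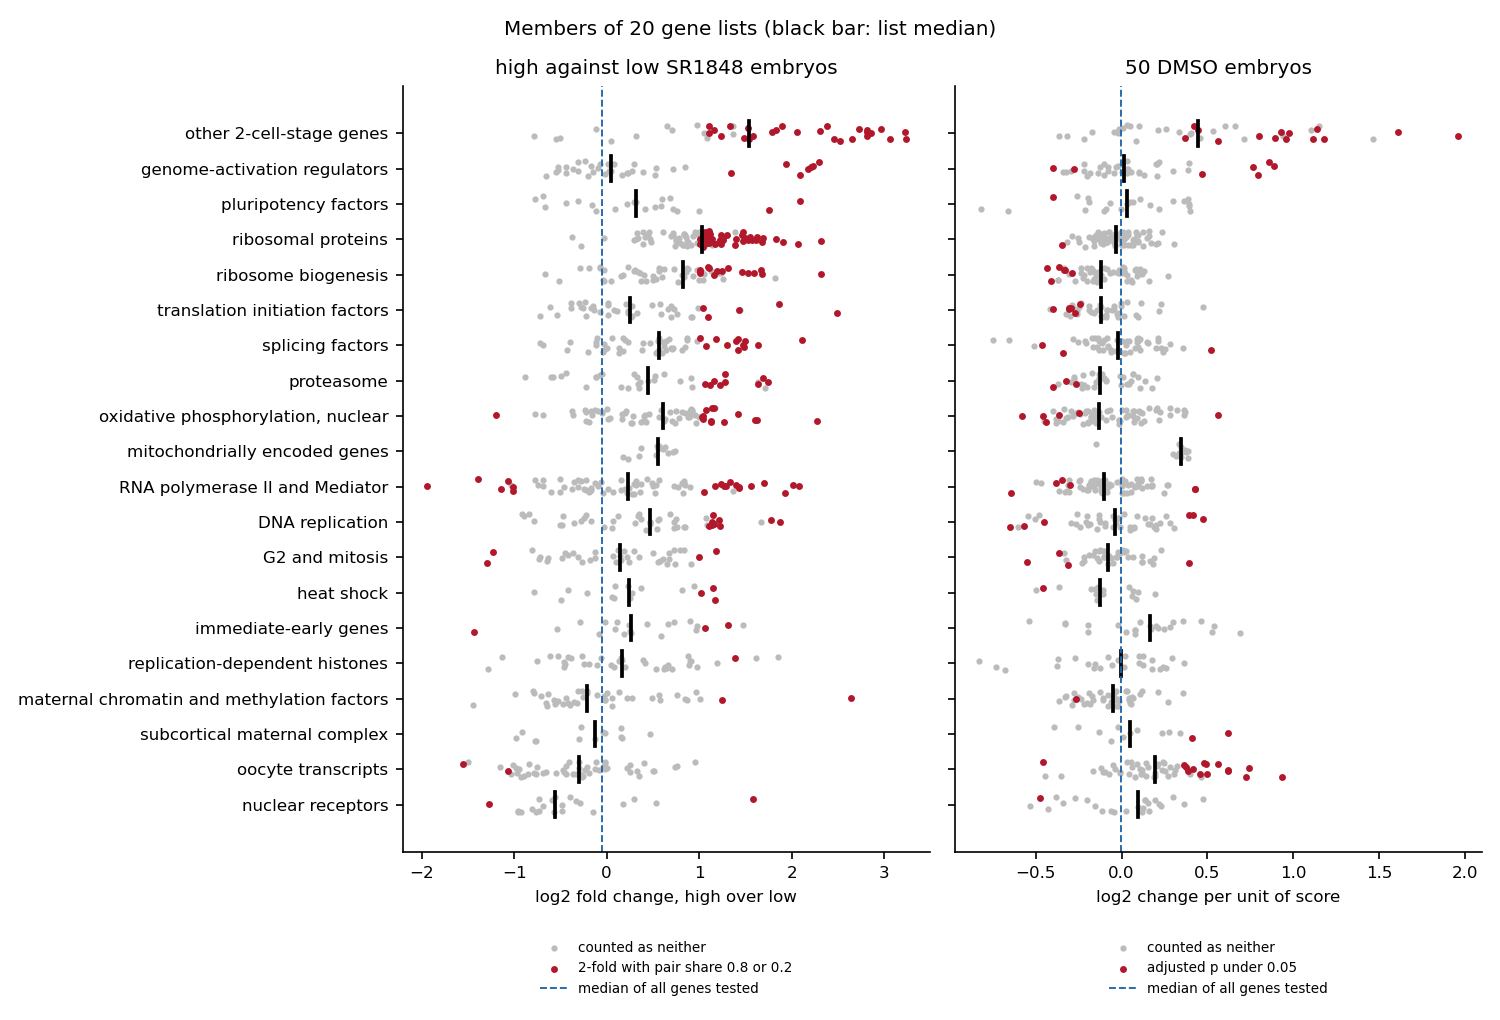
Members of 20 gene lists as log2 fold change of high over low SR1848 embryos (left) and as log2 change per unit of score in the 50 DMSO embryos (right). Each point is a gene, red where it was counted or passed, black bars are list medians and the dashed line is the median of all genes; ribosomal protein genes lie to the right in the left panel (median 1.03) and around 0 in the right one (-0.03).

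The score was then used as a continuous measure in embryos of neither group. In the 40 middle embryos, whose scores span a narrow range, edgeR's quasi-likelihood test over 14381 genes found 0 that rose with the score (0%) and 1 that fell (0.00695%), and at an unadjusted p under 0.05 there were 659 and 1240. DESeq2 called 23 and 58. The 1 gene, Marchf5, a mitochondrial ubiquitin ligase, outside the rule for named genes, ran from 90.2 over 165 to 516 CPM in middle embryos and had a slope of -1.94 log2 units per unit of score (SE 0.36, edgeR adjusted p = 0.0306), a call that ended under 8 other settings. By sign alone, 837 of the 1141 higher genes (73.4%) had a slope above 0 in middle embryos, beside 50.5% of all genes, and 335 of the 440 lower genes (76.1%) a slope below 0. All 15 of the largest upward genes and 11 of the 15 downward genes kept their sign there, none with an adjusted p under 0.05. By list, 30 of 41 genes of the 2-cell list (median slope 0.55) and 40 of 57 oocyte transcripts (0.47) had a slope above 0. Between high and low embryos the oocyte transcripts had gone the other way (median -0.30). Slopes above 0 were also found in 25 of 36 proteasome (0.33), 29 of 53 splicing (0.10) and 46 of 76 nuclear oxidative phosphorylation genes (0.16). Ribosomal proteins had 31 of 82 (-0.12), ribosome biogenesis 27 of 60 (-0.22) and initiation factors 22 of 44 (-0.002), none of these lists with a called gene.

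In the 50 DMSO embryos edgeR's test called 365 of 14805 genes (2.47%) as rising with the score and 411 (2.78%) as falling. Of the 1110 higher genes tested there, 755 (68.02%) had a slope above 0, beside 49.7% of all genes, 127 (11.4%) rose and 16 fell. Of the 439 lower genes 292 (66.5%) had a slope below 0, 21 (4.78%) fell and none rose. The 2-cell list held in part: 14 of 41 members rose and none fell (median slope 0.45, beside -0.002 over all genes). Under the oocyte scaling, which moved the median of all genes to -0.32, 8 rose and 4 fell. Of all 14805 genes 71 rose and 3906 fell under it. With the mitochondrial share as a covariate, added after seeing the data, 9 of 42 rose and none fell. Eif1ad6 (slope 1.14, SE 0.17, edgeR adjusted p = 1.8e-05), Eif1ad15 (1.11, SE 0.17, 1.8e-05) and Eif1ad7 (0.93, SE 0.18, 0.00056) were among the 14. So were Gm6763 (1.96, SE 0.28, edgeR adjusted p = 6.2e-06) and Tmem92 (0.42, SE 0.082, 0.00069). Eif1ad3, Eif1ad8 and Eif1ad11 were also among the 14. Because Eif1ad copies share sequence, they are not independent members of this count. Of the 15 largest upward genes 14 had a slope above 0 and 8 passed, including Pabpn1 (0.40, SE 0.10, edgeR adjusted p = 0.0107) and Prl8a1 (0.49, SE 0.12, 0.0084), whereas Tet1 did not pass (-0.02, SE 0.098). Of the 15 downward genes 12 had a slope below 0, and Dcaf12 (-0.35, SE 0.087, edgeR adjusted p = 0.0084) and Kctd13 (-0.56, SE 0.16, 0.0202) passed. With the mitochondrial share as a covariate 186 and 187 genes passed in DMSO embryos, and Pramel17, Eif1ad2, Kctd13 and Dcaf12 did not.

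Other lists did otherwise in DMSO embryos than between high and low SR1848 embryos, side by side and with no test of that contrast. Middle SR1848 embryos also had median slopes below 0 for ribosomal proteins (-0.12) and ribosome biogenesis (-0.22). In DMSO embryos, of 82 ribosomal protein genes none rose and 1, Rpl13, fell (median slope -0.03). Of 60 ribosome biogenesis genes none rose and 6 fell, among them Nop2 (slope -0.33, SE 0.10, edgeR adjusted p = 0.0436), Nolc1 (-0.34, SE 0.080, 0.0059) and Wdr43 (-0.41, SE 0.093, 0.0036). Nop2 and Nolc1 had been counted as higher in high embryos (1.16 and 1.01). Translation initiation factors had 6 of 44 falling and none rising, the proteasome list 3 of 36 falling and none rising, the splicing list 1 of 54 rising and 2 falling, and nuclear oxidative phosphorylation 1 of 76 rising and 5 falling. Over all genes 2.47% rose and 2.78% fell, so the splicing and ribosomal protein counts were near or below the share of all genes. With the mitochondrial share as a covariate the falls were 2 of 60 for ribosome biogenesis, 2 of 44 for initiation factors, 1 of 76 for oxidative phosphorylation and 0 for ribosomal proteins, proteasome and splicing factors. Under the oocyte scaling 71 of all 14805 genes rose and 3906 fell, with a median of -0.32. There 40 of 82 ribosomal protein genes fell, with a median of -0.32 like that of all genes. So did 37 of 60 ribosome biogenesis genes (-0.42), 32 of 44 initiation factors and 23 of 36 proteasome genes. DNA replication genes were divided, with Orc3, Pcna and Rpa3 rising and Mcm6, Cdt1 and Ccne1 falling among 48. With the mitochondrial share as a covariate 1 of the 48 rose and 2 fell, and under the oocyte scaling 0 rose and 22 fell.

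Among the genome-activation regulators 5 of 40 rose with the score in DMSO embryos, all of the Obox family, and 2, Nfyc and Tfap2c, fell. Under the oocyte scaling 4 of the 40 rose and 16 fell, beside 71 and 3906 of all 14805 genes. Obox1 (slope 0.79, SE 0.13, edgeR adjusted p = 8.7e-05), Obox2 (0.86, SE 0.18, 0.0020), Obox5 (0.89, SE 0.14, 4.7e-05) and Obox7 (0.77, SE 0.16, 0.0014) were not counted between high and low embryos. Obox3 (0.47, SE 0.093, edgeR adjusted p = 0.00092) rose here and was higher there, whereas Obox6 (0.20, SE 0.090, 0.190) and Obox8 (0.13, SE 0.11, 0.570) did not pass. Of 56 oocyte transcripts 14 rose and 1, Cpeb1, fell (median slope 0.20). Under the oocyte scaling 2 rose and 5 fell with a median of -0.14. That scaling takes out any change these transcripts share, so it cannot show one for the list. Spin1 (0.38, SE 0.10, edgeR adjusted p = 0.0198) and Tcl1b1 (0.74, SE 0.15, 0.0011) were among those that rose. With the mitochondrial share as a covariate 7 of the 56 rose and none fell.

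The slopes of middle and DMSO embryos were compared directly by an interaction term. Of 16316 genes 17 (0.104%) had a higher and 12 (0.0735%) a lower slope in middle embryos than in DMSO embryos by edgeR's test, and 16 of these 29 were at a median of 0 CPM in middle embryos. Of the lists only Fbxo15, Nr1h3 and Polr2c were among them. Nr5a2 had no detectable slope in either set, 0.26 in middle embryos (edgeR adjusted p = 0.930) and -0.04 in DMSO embryos (SE 0.087, edgeR adjusted p = 0.852).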

How the data were processed

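Single 2-cell embryos were read by Smart-seq2. The authors deposited estimated counts per transcript for 119358 entries, made with kallisto 0.46.1 after Trim Galore 0.6.2, per the submitters' processing notes, which also name R 3.5.1, DESeq2 1.32.0 and the builds mm10 and hg19 without a role for either; 28.5% of values were not whole. Here they were summed per gene name and rounded. The 2159 transcripts with no gene name (0.935% of counts) and 5 entries that are no mouse transcript (0.0258%) stayed out of library sizes and tests. The authors' deposited normalized values and comparison table were not used. The labels title the control embryos as untreated but give 0.1% DMSO as their treatment, and further control embryos that the design text lists were not analysed here.

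Levels are plain CPM over named genes, between 2701208 and 8360748 counts per embryo. Fold changes and slopes were fitted with edgeR 4.0.16 (TMM factors, filterByExpr, quasi-likelihood test, Benjamini-Hochberg adjustment over all genes tested) in R 4.3.3, and every such test was two-sided. Correlations used 100000 permutations and adjustment over 6 measures. Detected genes were counted after thinning each library to 3273726 counts. Smart-seq2 here carries no molecular identifiers, and each embryo was 1 library. No 2 SR1848 libraries were alike within sampling noise. The edgeR steps were checked on simulated counts. DESeq2 1.42.0, limma 3.58.1, other scalings, filters, covariates and scores were alternatives.

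The members, the gene lists and the tests were chosen with earlier results of these data known, and the lists are no independent evidence. Named genes are the 6 score genes, Nr5a2, the 15 largest differences each way among genes with a mean of at least 20 CPM and a pair share of at least 0.8 or at most 0.2 (predicted genes and copies left out), and from each list the 3 largest differences and the most abundant gene, not all of them shown. Other genes were named after their values were seen. Genes sharing at least 1 stretch of 31 bases with a score gene (GENCODE M21), a rule set after seeing the data, were left out of all counts. Gene positions are those of GENCODE M21, and promoter sequences were matched by symbol to RefSeq, where Eif1ad6 is listed as Gm4027 and Tcstv1 and Tcstv3 have no entry in the table used.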

Additional observations from a re-analysis of the deposited data

Results flagged for a closer look

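For 3 genes of the lists the slope on the score differed between middle SR1848 and DMSO embryos by edgeR's interaction test. Fbxo15, an F-box gene of the 2-cell list, had a slope 1.61 log2 units per unit of score higher in middle embryos (SE 0.34, edgeR adjusted p = 0.00955), with medians of 58.8 CPM in middle and 539 CPM in DMSO embryos. Nr1h3 (LXRα) differed by 6.71 (SE 1.53, edgeR adjusted p = 0.0254), but its median was 0 CPM in middle embryos and 10.9 CPM in DMSO embryos. Polr2c, a subunit of RNA polymerase II, differed by -0.99 (SE 0.24, edgeR adjusted p = 0.0453), with medians of 1477 CPM in middle and 860 CPM in DMSO embryos.

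The count table also holds entries for the repeat families B1 and B2, short retroelements, outside every gene count. B1 had medians of 98.4 CPM in high and 53.6 CPM in low embryos, above the 46.3 CPM of DMSO embryos, and B2 had medians of 231.8 CPM in high and 86.9 CPM in low embryos, above the 56.9 CPM of DMSO embryos. In the 40 middle embryos the score rose with B1 (Pearson r = 0.359, Spearman rho = 0.383, permutation test, adjusted p = 0.0468 and 0.0458; r = 0.225 without the 2 embryos farthest from the median score, and r = 0.331, adjusted p = 0.0718, with a TMM-scaled score) but not detectably with B2 (r = 0.213, rho = 0.288, adjusted p = 0.226 and 0.105; r = 0.109 without these 2).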

How the results depend on the processing

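No counted difference or called slope of a named gene changed sign under any alternative run. Under the oocyte scaling the median of all genes turned from -0.05 to 0.28, the medians of 6 of 30 lists between high and low embryos and of 11 of 28 lists in DMSO embryos turned, and so did Mdm4 (0.10) and Dnajb1 (0.04), neither of them counted. Both list counts include the oocyte transcripts, on which that scaling rests. In middle embryos the 1 gene that fell became 0 with RLE factors, a 5 CPM filter, log total count, detected genes, an embryo-number factor, the mitochondrial share, the oocyte scaling or Zfp352 as score. Without a filter 479 genes rose and 353 fell there, with DESeq2 23 and 58, with a TMM-scaled score 27 and 36, with the Zscan4 score 11 and 7, and 12 fell with the Tcstv score. In DMSO embryos 956 rose and 748 fell without a filter, 253 fell with detected genes as covariate, and 144 and 162 passed with the Zscan4 score, 122 and 184 with the Tcstv score, 72 and 9 with Zfp352 alone, 186 and 187 with the mitochondrial share, and 71 and 3906 with the oocyte scaling. With limma-voom 6 slopes were higher in middle than in DMSO embryos, in place of 17. Between high and low embryos 1792 and 1190 genes were counted with 10 embryos a side, 417 and 142 with 30, 688 and 273 with the Tcstv score and 759 and 242 with Zfp352, and 86 were lower with the oocyte scaling. With a TMM-scaled score r was 0.209 for detected genes and 0.331 for B1, neither past the threshold, and 38 of the 40 embryos stayed in their group. Of 450 alternatives for single genes, 405 kept their side, 26 lost the call and 19 moved by more than 1 SD. The cause was not tested. No paired analysis was possible because each SR1848 embryo has its own number, so high and low embryos share none. Depth limits transcripts of a few CPM, and the narrow range of scores limits the middle embryos.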

Other observations

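Among genes left out of the counts because they share sequence with the score genes, Gm21818, which shares 55.28% of its 31-base stretches with them, had medians of 519 CPM in high and 92.2 CPM in low embryos. Gm21731, which shares 2.61%, had medians of 459.5 CPM in high and 85.6 CPM in low embryos. Both were chosen after their values were seen, and a test of them against the score would test it partly against itself. Among high embryos 13 of 20 carried a number up to 40, against 10 of 20 low embryos, and the labels do not say what the numbers mark.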
